A study of Bos taurus and Bos indicus with 6 samples.

Results

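Interferon-stimulated genes are the genes that leukocytes switch on after sensing type I or type II interferon. The set described here was given as 49 gene symbols, and its members were taken as the probe sets whose only annotated symbol was one of them. Of these symbols 34 had such a probe set, 48 probe sets in all, out of 9155 genes and 24016 probe sets on the array. For a gene with several probe sets the one with the highest mean over all 6 arrays was used. The other 15 symbols were not analysed here: DDX58 and RIGI (names of the same RNA sensor), IFIH1, ZBP1, SP110, OAS1Y, OAS1Z, OAS2, ISG20, GBP2, IFIT1, IFIT3, IFITM3, BST2 and CMPK2. A further probe set carried several symbols with a member among them and was left out.

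The animals were 3 Brahman (Bos indicus) and 3 Holstein-Friesian (Bos taurus) females, labelled 6 months of age, all sampled while heavily and repeatedly infested with the cattle tick Rhipicephalus microplus. Total RNA came from all white cells left after lysis of the red cells in jugular blood, without sorting or culture, and each animal was hybridised to its own Affymetrix bovine array. Values are log2 expression as deposited, so a difference of 1 is a doubling. Arrays of animals without ticks were not analysed here, so any breed difference that exists without ticks is part of each value.

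In the classical pathway, interferon binds its receptor on the cell surface, kinases of the JAK family activate STAT2, and STAT2 enters the nucleus with IRF9 to switch on target genes. The products include sensors of foreign RNA, enzymes that degrade or block viral RNA, membrane proteins that hinder viral entry, and the ubiquitin-like protein ISG15 with the enzymes that attach and remove it. In blood, these genes often rise and fall together from one individual to the next.

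The leading feature of the set was a large spread among the Brahman animals, with a smaller shift towards lower values in Brahman as a breed. Averaged over the 34 genes, the log2 level was 9.53, 8.84 and 8.55 in Brahman 1, 2 and 3, and 9.34, 9.59 and 9.20 in Holstein 1, 2 and 3. Brahman 1 thus lay within the Holstein range and Brahman 2 and 3 lay below it. The mean was 8.97 ± 0.51 in Brahman and 9.38 ± 0.20 in Holstein (SD, n = 3 each). In bulk RNA of this kind, fewer cells of a type and less RNA per cell cannot be told apart.

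Of the 34 genes 33 had a lower mean in Brahman, where 44.5% of all probe sets did. Among the 32 genes with a mean of at least 6, which leaves out the dim HERC5 and HERC6, 31 did. The median difference, Brahman minus Holstein, was -0.39 for the set and 0.02 over all probe sets. With limma and Benjamini-Hochberg adjustment over all 24016 probe sets, 0 of the 34 genes were called at an adjusted p under 0.05, against 0.137% of all probe sets. At an unadjusted p under 0.05, 5 genes (14.7%) were lower in Brahman, where 6.47% of all probe sets were, and 1 gene (2.94%) was higher, where 7.12% were. The members share the same animals and tend to move together, so these counts do not rest on 34 separate observations.

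**Figure D1:**
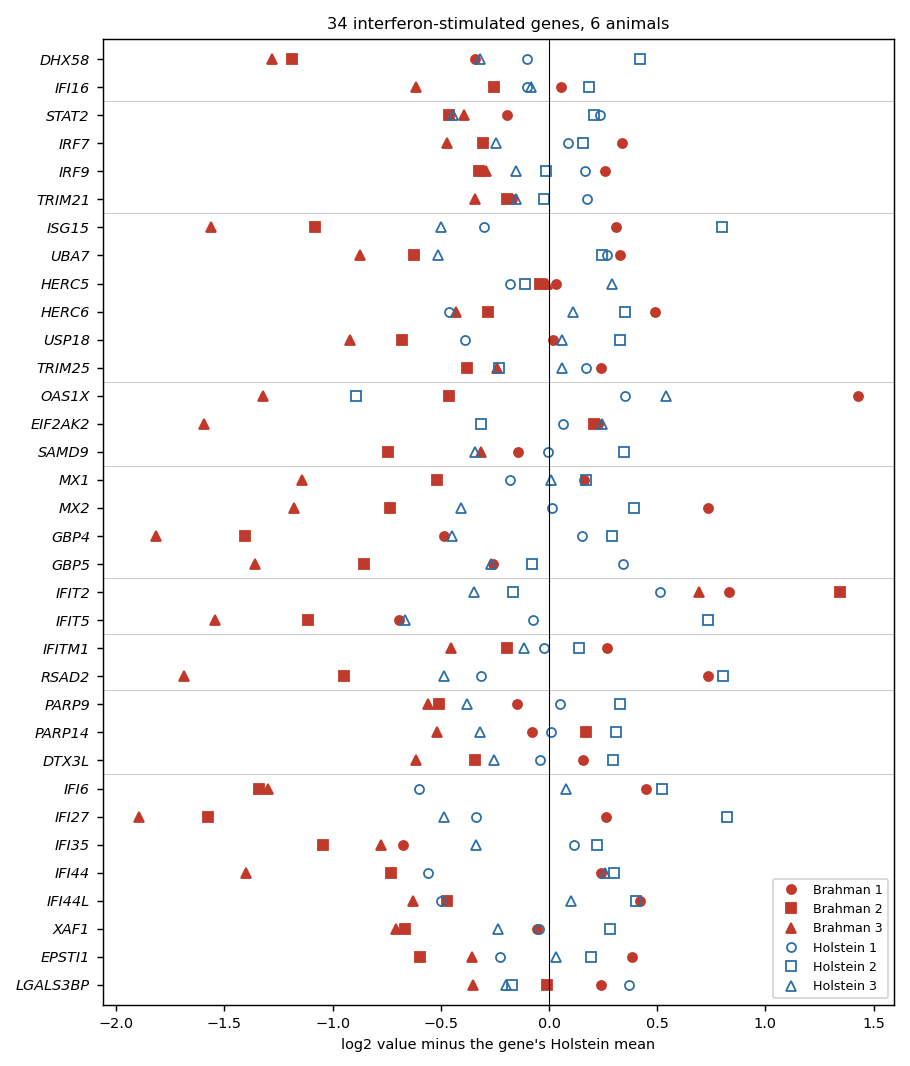
Each row is a gene and each point an animal, plotted as its log2 value minus the mean of that gene over the Holstein animals; filled red symbols are Brahman, open blue symbols Holstein, and grey lines separate functional groups. Brahman 1 (red circle) is the highest Brahman animal for 32 of 34 genes, while Brahman 3 (red triangle) is the lowest for 26.

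Brahman 1 was the highest of the Brahman animals for 32 of 34 genes, where it was highest for 35.2% of all probe sets. Without the dim HERC5 and HERC6 it was the highest for 30. The exceptions were IFIT2 and PARP14, which were highest in Brahman 2. Brahman 3 was the lowest for 26 genes, against 33.2% of all probe sets, and the full order Brahman 1 above 2 above 3 held for 24 genes, against 16.9%. Brahman 1 exceeded Brahman 3 by at least 1 log2 unit in 13 genes (38.2%), which was so for 0.437% of all probe sets. In Holstein, animal 2 was the highest for 23 genes, against 32.6% of all probe sets, animal 1 for 8 and animal 3 for 3. Against the Holstein mean, Brahman 1 was higher in 23 genes (55.9% of all probe sets), Brahman 2 in 3 (53.0%) and Brahman 3 in 1 (53.9%).

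Among all 9155 named genes, each read from its brightest probe set, the 30 with the greatest excess of Brahman 1 over Brahman 3 included 11 members of the set. A further one, RTP4, was on a separate list of other interferon-induced genes, and 18 were on neither list. The members among them were OAS1X, RSAD2, IFI27, MX2, ISG15, EIF2AK2, IFI6, IFI44, GBP4, MX1 and UBA7, or 32.4% of the measured set. For all genes the share is 30 of 9155. The animals ranked here, Brahman 1 and Brahman 3, were those with the highest and lowest Brahman mean of the set. The ranking thus restates the spread already described and gives it no separate support. Of the 18, the 2 at the head of the ranking were the MHC class II gene BOLA-DQA2 (11.73, 12.60 and 7.16 in Brahman 1, 2 and 3) and PLAC8A (9.84, 9.61 and 6.65). Both were named after their values were seen. In these, Brahman 2 stood beside Brahman 1, whereas for the 11 members other than EIF2AK2 it stood nearer to Brahman 3, for MX1 only just.

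**Figure D2:**
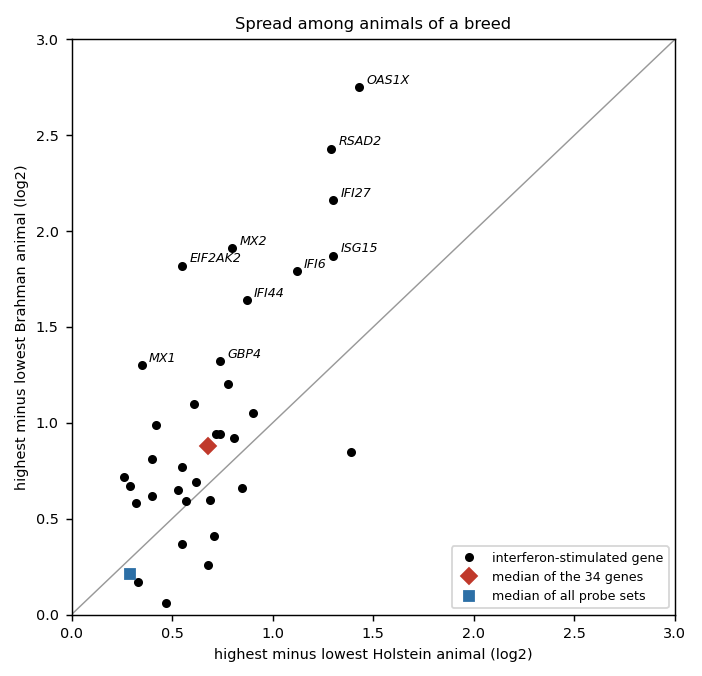
Each black point is a gene, with the highest minus the lowest Holstein animal on the horizontal axis and the same for Brahman on the vertical axis, both in log2 units; the diagonal marks equal spread. Of the 34 genes 26 lie above the diagonal, and the set's median (0.68, 0.88) lies above that of all probe sets (0.29, 0.21) on both axes.

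The median range over the Brahman animals was 0.88 for the set and 0.21 for all probe sets, and over the Holstein animals 0.68 and 0.29. The Brahman range exceeded the Holstein range in 26 of 34 genes, where it did in 36.7% of all probe sets. Among probe sets with a mean of at least 6, the medians were 0.89 and 0.23 in Brahman and 0.68 and 0.33 in Holstein. The set was thus variable within both breeds, with the wider range in Brahman, while for probe sets in general it lay in Holstein. The difference in spread between breeds was not tested, since each rests on 3 animals.

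The 5 genes with the widest range over the Brahman animals were OAS1X, RSAD2, IFI27, MX2 and ISG15. OAS1X, a synthetase of the short oligoadenylates that activate the ribonuclease RNase L, read 9.23, 7.34 and 6.48 in Brahman 1, 2 and 3. In Holstein 1, 2 and 3 it read 8.15, 6.91 and 8.34, so the breeds overlapped fully. Its breed difference was -0.12 (SE 0.69, 95% confidence interval -1.73 to 1.49, adjusted p = 0.964), an interval too wide to show a size or direction, and -2.07 with the spike-in signal in the fit. Here Holstein 2 was the lowest Holstein animal, unlike in most of the set.

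RSAD2, which encodes viperin, a radical-SAM enzyme that makes a chain-terminating nucleotide, stood at 9.35, 7.67 and 6.93 in Brahman. The Holstein values were 8.30, 9.42 and 8.13, with animal 2 the highest. Brahman 1 thus read like Holstein 2 while the other Brahman animals lay below every Holstein animal. The difference of -0.63 (SE 0.61, adjusted p = 0.696) lay within the spread of the animals, and ran from -1.32 without Brahman 1 to -0.11 without Brahman 3.

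IFI27, a mitochondrial and nuclear-envelope protein strongly induced by interferon alpha, read 9.28, 7.44 and 7.12 in Brahman and 8.68, 9.84 and 8.53 in Holstein. MX2, a dynamin-like GTPase, gave 9.40, 7.93 and 7.49 in Brahman and 8.68, 9.06 and 8.26 in Holstein. ISG15 itself read 12.25, 10.86 and 10.38 in Brahman and 11.64, 12.74 and 11.44 in Holstein. In all of these Brahman 2 and 3 lay below every Holstein animal, while Brahman 1 lay among them or, for MX2, above them. Their differences of -1.07 (SE 0.58), -0.39 (SE 0.46) and -0.78 (SE 0.51) had adjusted p-values of 0.468, 0.759 and 0.551. Without Brahman 1 they were -1.74, -0.96 and -1.32, and without Brahman 3 -0.66, 0.00 and -0.39. Leaving out Holstein 2 gave -0.66, -0.20 and -0.38.

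Leaving out single animals showed how much of the breed comparison rested on this spread. Without Brahman 1, 20 genes were lower in Brahman at an unadjusted p under 0.05, where 4.83% of all probe sets were, and the median difference was -0.62. All 5 genes found with all arrays were among the 20. Leaving out Brahman 3 brought the median to -0.13 and the lower genes to 3, against 4.9% of all probe sets. Without Holstein 3, 10 genes were lower, against 7.8%. Without Brahman 2, Holstein 1 or Holstein 2 the count was 5 each time, against 5.3%, 6.35% and 4.9%, with medians of -0.29, -0.37 and -0.24. In each of these 6 fits limma called 0 of the 34 genes at an adjusted p under 0.05. Over all probe sets it called 0.0458%, 0.0208% and 0.0874% without Brahman 1, 2 and 3, and 0.075%, 0.0333% and 0.229% without Holstein 1, 2 and 3. IFIT2 was the 1 gene higher at an unadjusted p under 0.05 in every such fit, where 5.01%, 5.57% and 4.74% of all probe sets were higher without Brahman 1, 2 and 3, and 6.32%, 5.7% and 8.2% without Holstein 1, 2 and 3.

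**Figure D3:**
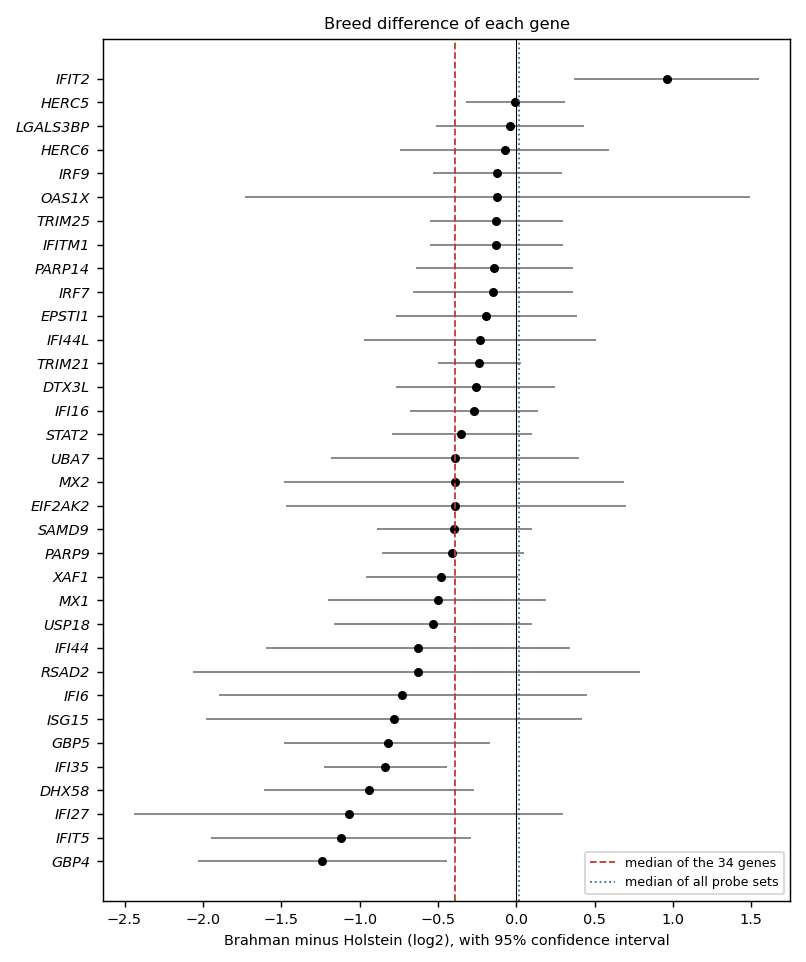
Points are the breed difference of each gene (Brahman minus Holstein, log2) and bars its 95% confidence interval from limma; the dashed red line is the set's median (-0.39) and the dotted blue line that of all probe sets (0.02). Intervals of 6 genes exclude 0, those of GBP4, IFIT5, DHX58, IFI35 and GBP5 on the lower side and that of IFIT2 on the higher side.

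Turning to the members by function, the sensors were represented by DHX58 and IFI16. DHX58 encodes LGP2, a helicase that tunes signalling by the RNA sensors RIG-I and MDA5. It read 8.73, 7.88 and 7.79 in Brahman and 8.97, 9.49 and 8.75 in Holstein. The breeds did not overlap, though Brahman 1 and Holstein 3 were only just apart. The difference was -0.94 (SE 0.28, adjusted p = 0.252), 1.92-fold higher in Holstein. IFI16, a nuclear DNA sensor, read 11.10, 10.79 and 10.43 in Brahman and 10.94, 11.23 and 10.96 in Holstein, with overlap.

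Among transcription factors and nuclear regulators, 4 genes were measured, and all had small differences, from -0.35 to -0.12. STAT2, the signal transducer specific to type I and III interferon, read 9.14, 8.87 and 8.94 in Brahman and 9.57, 9.54 and 8.89 in Holstein. IRF9, its DNA-binding partner, gave 10.40, 9.82 and 9.85 in Brahman and 10.31, 10.13 and 9.99 in Holstein. IRF7, the factor that amplifies interferon alpha production, gave 9.14, 8.50 and 8.33 in Brahman and 8.89, 8.96 and 8.56 in Holstein. The breeds overlapped for all of these. TRIM21, a ubiquitin ligase that binds antibody inside cells, read 8.10, 8.08 and 7.93 in Brahman and 8.45, 8.25 and 8.12 in Holstein. Its breeds were separated by a very narrow gap, with a difference of -0.24 (SE 0.11, adjusted p = 0.414).

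All 6 genes of the ISG15 system were measured, and each had a lower mean in Brahman, with none at an unadjusted p under 0.05, though HERC5 and HERC6 were too dim to count. The other 4 differed by -0.78 to -0.13. UBA7, the enzyme that activates ISG15, read 9.58, 8.63 and 8.38 in Brahman and 9.52, 9.50 and 8.74 in Holstein. USP18, the protease that removes ISG15 and restrains the interferon receptor, read 8.95, 8.25 and 8.01 in Brahman and 8.54, 9.26 and 8.99 in Holstein (difference -0.53, SE 0.27, adjusted p = 0.441). TRIM25, the ligase that ubiquitinates RIG-I, gave 11.25, 10.63 and 10.77 in Brahman and 11.18, 10.78 and 11.07 in Holstein. For each of these, Brahman 1 was the highest Brahman animal and the breeds overlapped. HERC5 and HERC6, neighbouring genes for ligases of the ISG15 family, had means of 4.12 and 4.69 in Brahman and 4.13 and 4.76 in Holstein. The lower quartile over the whole array, 5.07, lies above them, so neither is shown to stand above background and their small differences cannot be read.

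Beside OAS1X, the RNA-directed effectors were EIF2AK2 and SAMD9. EIF2AK2 encodes PKR, the kinase that halts translation on double-stranded RNA. Its brighter probe set read 7.64, 7.62 and 5.82 in Brahman and 7.48, 7.10 and 7.66 in Holstein, so that Brahman 3 alone was low. SAMD9, a translation-blocking antiviral factor, gave 10.70, 10.10 and 10.53 in Brahman and 10.84, 11.19 and 10.50 in Holstein (difference -0.40, SE 0.21, adjusted p = 0.457). The breeds overlapped for both genes.

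The GTPases held 2 of the 5 genes that were lower at an unadjusted p under 0.05, and both were guanylate-binding proteins, which attack the vacuoles and membranes of intracellular microbes. GBP4 read 9.07, 8.15 and 7.74 in Brahman and 9.71, 9.85 and 9.11 in Holstein. Every Brahman animal lay below every Holstein animal, with Brahman 1 close to Holstein 3. Its difference of -1.24 (SE 0.34, adjusted p = 0.216), or 2.35-fold, was the greatest of the 34 genes in size. GBP5 read 7.37, 6.77 and 6.27 in Brahman and 7.97, 7.55 and 7.36 in Holstein, with Brahman 1 just above Holstein 3 (difference -0.82, SE 0.28, adjusted p = 0.286). The same Brahman order ran through both genes.

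MX1, the GTPase that traps viral nucleocapsids, read 12.12, 11.44 and 10.82 in Brahman and 11.78, 12.13 and 11.97 in Holstein. Holstein animals were close together, within a range of 0.35, while Brahman animals spanned 1.30. The breeds overlapped through Brahman 1. MX1 and MX2 are neighbours on the RefSeq assembly, and both had Brahman 1 highest and Brahman 3 lowest of the breed.

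The IFIT family gave the only gene of the set with a higher mean in Brahman. IFIT2, which binds AU-rich RNA and restrains translation, read 10.33, 10.84 and 10.19 in Brahman and 10.01, 9.33 and 9.15 in Holstein. All Brahman animals lay above all Holstein animals, and the difference was 0.96 (SE 0.25, adjusted p = 0.208), 1.94-fold. IFIT5, an RNA-binding relative encoded nearby with 2 genes between them, read 9.40, 8.98 and 8.55 in Brahman and 10.02, 10.83 and 9.43 in Holstein. Its animals were separated the other way, by a difference of -1.12 (SE 0.36, adjusted p = 0.264), 2.17-fold.

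The unequal change of these relatives was also read within each array. IFIT2 minus IFIT5 was 0.94, 1.87 and 1.63 in Brahman and -0.02, -1.50 and -0.28 in Holstein. Its means differed by 2.08 between the breeds. An exact permutation of the breed labels gave a two-sided p of 0.1, the smallest that 3 against 3 animals allow. This contrast was chosen after the values were seen, and its separation follows from that of each gene, so the p-value gives no support. Once the spike-in signal of each array was added to the fit, the separate differences were 0.41 for IFIT2 and -0.54 for IFIT5.

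**Figure D4:**
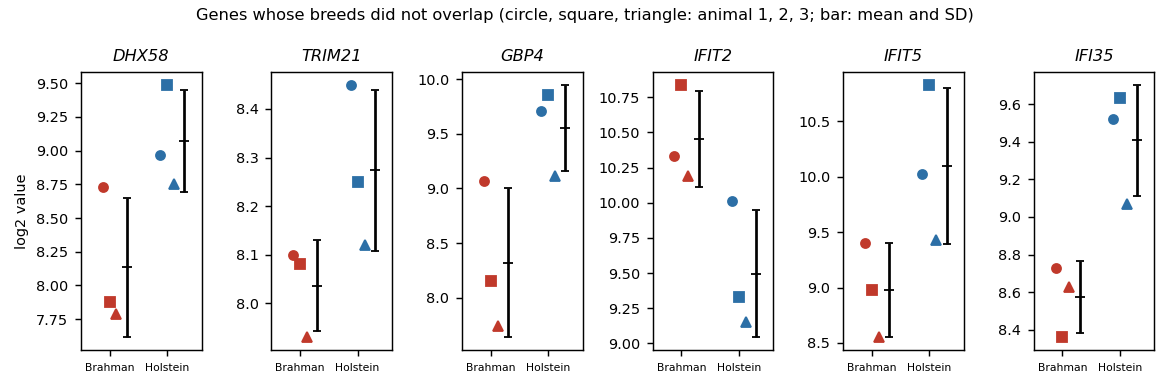
Log2 values of the 6 genes whose breeds did not overlap, with 1 symbol per animal (circle, square and triangle for animals 1, 2 and 3; red Brahman, blue Holstein) and the mean ± SD beside them; each panel has its own vertical scale. IFIT2 alone is higher in Brahman; IFI35 has the clearest gap among the other 5 genes, while those of DHX58, TRIM21, GBP4 and IFIT5 are narrow.

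In all, the breeds did not overlap for 5 genes lower in Brahman (14.7%, against 8.37% of all probe sets) and for 1 gene higher (2.94%, against 11.7%). The lower genes were DHX58, TRIM21, GBP4, IFIT5 and IFI35. When quantile normalisation was repeated, DHX58 and TRIM21 overlapped and 3 lower genes were left. IFI35, an interferon-induced leucine zipper protein that partners with NMI, read 8.73, 8.36 and 8.63 in Brahman and 9.52, 9.63 and 9.07 in Holstein. Unlike most of the set, it was nearly level among the Brahman animals, with a range of 0.37. Its difference of -0.84 (SE 0.17, adjusted p = 0.129), or 1.79-fold, had the smallest p of the 34 genes.

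IFITM1, a membrane protein that blocks fusion of incoming viruses, read 13.68, 13.22 and 12.96 in Brahman and 13.39, 13.55 and 13.30 in Holstein, near the top of the array's scale (highest value 14.45). A difference at that level may be compressed, which was not tested. The dimmer IFITM1 probe set read 7.09, 6.86 and 6.49 in Brahman and 7.09, 7.39 and 6.99 in Holstein, also with overlap. The difference was -0.13 on the brighter probe set and -0.34 on the dimmer one. PARP9, DTX3L and PARP14 are neighbours on the assembly, and the first pair forms an ADP-ribosylating ubiquitin ligase. PARP9 read 10.07, 9.71 and 9.66 in Brahman and 10.27, 10.55 and 9.84 in Holstein (difference -0.41, SE 0.20, adjusted p = 0.417). DTX3L gave 10.35, 9.85 and 9.58 in Brahman and 10.15, 10.49 and 9.94 in Holstein. PARP14, a mono-ADP-ribosyltransferase, gave 8.57, 8.82 and 8.13 in Brahman and 8.66, 8.96 and 8.33 in Holstein. These 3 overlapped between breeds, and in each of them Holstein 2 was the highest animal of all.

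Among the remaining induced genes, IFI6, a mitochondrial and endoplasmic reticulum protein, read 10.40, 8.61 and 8.65 in Brahman and 9.35, 10.47 and 10.03 in Holstein. IFI44 gave 8.93, 7.96 and 7.29 in Brahman and 8.13, 8.99 and 8.95 in Holstein, and its neighbour IFI44L gave 9.60, 8.71 and 8.55 and then 8.68, 9.58 and 9.28. In these 3, Brahman 1 matched the high Holstein animals, and Holstein 1 was the lowest Holstein animal. XAF1, a binding partner of the apoptosis inhibitor XIAP, had a narrower range and read 11.34, 10.73 and 10.69 in Brahman and 11.35, 11.68 and 11.16 in Holstein (difference -0.48, SE 0.21, adjusted p = 0.373). EPSTI1, named for its induction in epithelial cells by stroma, read 11.21, 10.23 and 10.47 in Brahman and 10.60, 11.02 and 10.86 in Holstein. LGALS3BP, a secreted glycoprotein that binds galectins, gave 9.33, 9.08 and 8.74 in Brahman and 9.46, 8.92 and 8.89 in Holstein, with overlap. Its dimmer probe set read 8.33, 7.98 and 7.79 in Brahman and 8.86, 8.70 and 8.21 in Holstein, so the difference was -0.04 on the one and -0.55 on the other.

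**Figure D5:**
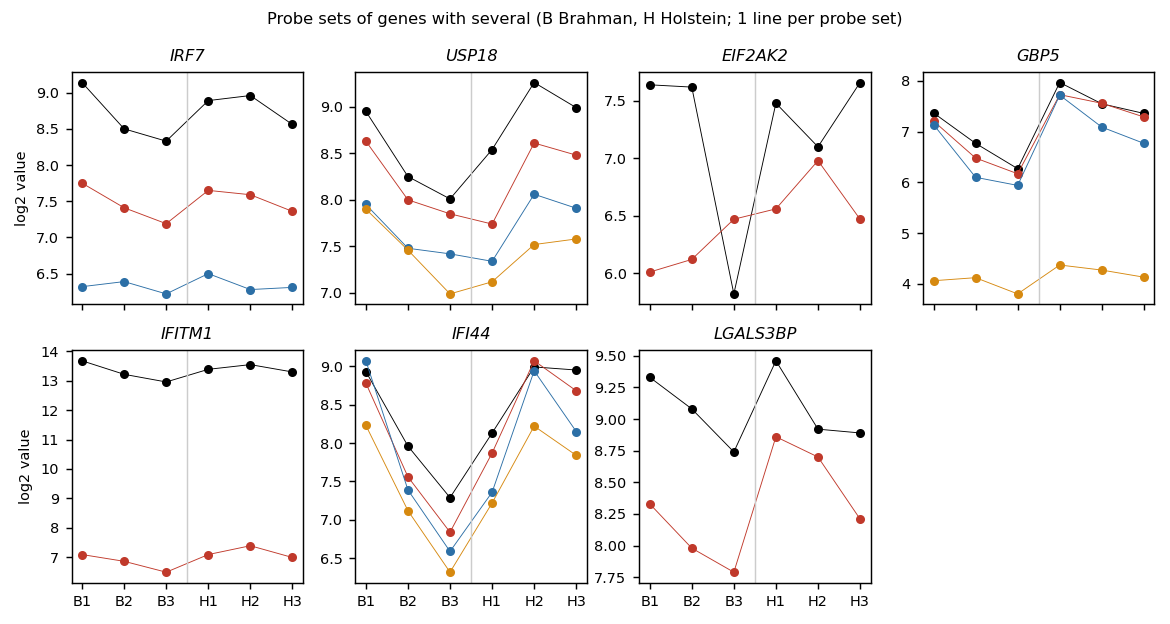
Log2 values by animal for the 7 genes with several probe sets, with a line joining the points of each probe set only to show which belong together; each panel has its own vertical scale, and animals of a breed have no order. The 4 IFI44 and 4 USP18 probe sets all fall in the order Brahman 1, 2, 3, while the EIF2AK2 probe sets run in opposite orders.

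Genes with several probe sets gave a repeat reading of the animal pattern from the same RNA. The 4 probe sets of IFI44 and the 4 of USP18 all had Brahman 1 above 2 above 3, as did both of IFITM1 and of LGALS3BP. For GBP5 3 of 4 probe sets did, and for IRF7 2 of 3, the exceptions being the dimmest ones. EIF2AK2 was the gene whose probe sets differed most in pattern. Its dimmer one read 6.01, 6.12 and 6.47 in Brahman and 6.56, 6.98 and 6.47 in Holstein, so that Brahman 3 was the highest of its breed there and the lowest on the brighter one. No test was made of which one reads the transcript. USP18 alone had probe sets that differed in the sign of the breed difference by over 0.5, from -0.53 to 0.04. The brightest is given above. The next read 8.63, 8.0 and 7.85 in Brahman and 7.74, 8.61 and 8.48 in Holstein (difference -0.12), and another 7.95, 7.48 and 7.42 and then 7.34, 8.06 and 7.91 (-0.16). The last read 7.90, 7.46 and 6.99 in Brahman and 7.12, 7.52 and 7.58 in Holstein (0.04). Brahman 1 lay above every Holstein animal on the second and the last of these 4 and between them on the others, and the breed differences lay within the spread of the animals.

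The rest of the interferon pathway was read from lists of named genes. Of 4 interferon genes measured, 0 reached an unadjusted p under 0.05 in limma, where 6.47% of all probe sets were lower and 7.12% higher. IFNB1 read between 3.76 and 4.07 on the 6 arrays and IFNG between 4.75 and 5.80, the latter in Holstein 2. IFNB1, like HERC5, sits among the dim probe sets, and its similar values say little about the gene. Outside Holstein 2, IFNG also lay below the array's lower quartile of 5.07, so its breed difference cannot be read either. IFNAC and IFNT2, coding for alpha and tau interferons, differed by 0.12 and 0.15 (adjusted p = 0.664 and 0.477). IFNG differed by -0.23 (adjusted p = 0.733), and by 0.08 without Holstein 2.

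Receptors and proximal signalling did not share the set's lower values. Of 6 such genes 3 had lower and 3 higher means, with a median of 0.07. Those higher at an unadjusted p under 0.05, where 7.12% of all probe sets were, were JAK1 and IFNAR1. IFNAR1, a chain of the type I interferon receptor, read 7.83, 8.43 and 8.30 in Brahman and 7.44, 6.85 and 7.79 in Holstein, a difference of 0.83 (SE 0.25, adjusted p = 0.255). JAK1, a kinase bound to the receptor, read 12.36, 12.30 and 12.39 against 11.95, 12.07 and 12.09, a difference of 0.31 (SE 0.09, adjusted p = 0.224). All Brahman animals lay above all Holstein animals for both genes, and Brahman 1 did not stand above its breed for either. IL10RB, a receptor chain of type III interferon, differed by -0.17 (adjusted p = 0.531).

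Among inducers of interferon 7 of 10 genes had lower means, and at an unadjusted p under 0.05 there were 2 lower and 1 higher, against 6.47% and 7.12% of all probe sets. IRF5 differed by -0.33 (adjusted p = 0.289), MAVS, the mitochondrial adaptor of RNA sensing, by -0.36 (adjusted p = 0.301), and the RNA receptor TLR3 by 0.48 (adjusted p = 0.359). Of 7 negative regulators measured 4 had lower means. For 2 of them the unadjusted p was under 0.05, where 6.47% of all probe sets were lower. These were the phosphatases PTPN1 (-0.60, adjusted p = 0.214), which acts on JAK2 and TYK2, and PTPN6 (-0.25, adjusted p = 0.328). CISH, a suppressor of cytokine signalling, differed by 0.32 (adjusted p = 0.399).

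A list of other interferon-induced genes had 24 of 31 lower means and a median of -0.29, and 4 of the lower and 2 of the higher ones had an unadjusted p under 0.05, the higher share being close to the 7.12% of all probe sets and the lower above their 6.47%. CXCL10, the chemokine for activated T cells, read 6.94, 6.97 and 6.51 in Brahman and 9.06, 8.43 and 7.31 in Holstein. Its breeds did not overlap, the difference was -1.46 (SE 0.40, adjusted p = 0.214), and Brahman 1 did not stand out. Without Holstein 3 the difference was -1.94, just past the threshold (adjusted p = 0.05 after rounding). STAT4, the transducer of interleukin 12, and LY6E, a surface protein that restricts coronaviruses, had higher means in Brahman, by 0.66 and 0.68 (adjusted p = 0.123 and 0.259). With the spike-in signal in the fit these became 0.94 and 0.03. RTP4 read 7.91, 6.48 and 6.47 in Brahman and 7.53, 8.28 and 7.87 in Holstein. That is the pattern of IFI6, with Brahman 1 high and Brahman 2 and 3 level.

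Some lists of cell type markers had means that did not overlap between the breeds, while the means of other lists overlapped. The pan-leukocyte gene PTPRC lay between 12.62 and 12.80 on the 6 arrays, and of 4 such genes 2 had lower and 2 higher means, with CD53 differing by -0.19 (adjusted p = 0.601). Of 10 T cell markers 9 had higher means in Brahman. For 6 the unadjusted p was under 0.05, where 7.12% of all probe sets were higher. The mean of the list was 9.39 to 9.53 in Brahman and 9.16 to 9.23 in Holstein, with CD3E higher by 0.54 (adjusted p = 0.126). Of 4 monocyte markers 3 had lower means, with list means of 8.15 to 8.44 against 8.49 to 9.11 and CD14 differing by -0.94 (adjusted p = 0.141). All 4 dendritic cell markers had lower means, with list means of 8.23 to 8.42 against 8.60 to 8.61. CD1B, with means of 4.83 in Brahman and 4.91 in Holstein, lay below the array's lower quartile of 5.07. An unadjusted p under 0.05 was reached by 2 of the 4 markers, where 6.47% of all probe sets were lower. IRF8, 1 of the 2, differed by -0.30 (adjusted p = 0.274) and is also on the list of other interferon-induced genes. Neutrophil markers overlapped, at 10.09 to 10.53 against 10.00 to 10.43, with lower means for 4 of 7. An unadjusted p under 0.05 was reached by 1 marker in each direction, where 6.47% of all probe sets were lower and 7.12% higher. The higher one, ALPL, differed by 1.42 (adjusted p = 0.0834), and by 1.70 without Brahman 3, where it was called (adjusted p = 0.00809). The part of cell makeup in the breed differences was not tested.

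The same markers can be set against the spread among the Brahman animals. In Brahman 1, 2 and 3 the mean of the monocyte list was 8.15, 8.44 and 8.37, and that of the dendritic list 8.23, 8.42 and 8.42. The neutrophil list averaged 10.09, 10.53 and 10.13. Brahman 1, the animal with the highest level of the set, thus had the lowest list means, for neutrophils only just. Single markers differed: CD14, IRF8 and ALPL were lowest in Brahman 3, while CD68, TCF4 and CXCR1 were lowest in Brahman 1. The part of cell makeup in this spread was not tested. T cell markers read 9.53, 9.39 and 9.53, and 6 NK and cytotoxic markers, 5 of them with higher means in Brahman, read 8.89, 8.22 and 8.49, with Brahman 1 highest for the latter. In that list GZMB, a protease of cytotoxic granules, rose by 2.51 in Brahman relative to Holstein (adjusted p = 0.0264). The call was lost without Brahman 1, 2 or 3 or Holstein 1, at adjusted p-values of 0.104, 0.133, 0.0568 and 0.110, while the differences there were 2.40, 2.48, 2.65 and 2.47. With the spike-in signal in the fit the difference was 3.03 (adjusted p = 0.358). Another member of the list, PRF1, which encodes perforin, had a lower mean in Brahman (difference -0.60) and was named after its value was seen. Of 3 B cell markers 2 had lower means, and BLK differed by 0.97 (adjusted p = 0.106). The platelet gene PF4 differed by -0.60 (adjusted p = 0.369), and the red cell gene ALAS2 by -0.56 (adjusted p = 0.341), while 4 of 6 red cell markers had higher means and the median of that list was 0.05. HDC, the only measured gene of basophils, read 3.78 to 4.08 on the 6 arrays, among the dim probe sets, so nothing can be read from it.

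Hybridisation spike-in controls read 9.64, 9.71 and 9.80 in Brahman and 9.94, 10.38 and 10.10 in Holstein, without overlap. The actin signal at the 3′ end minus that at the 5′ end was 1.68 ± 0.04 and 1.86 ± 0.13 (SD, n = 3 each). Adding the spike-in signal to the fit left 1 of the 34 genes, GBP5, lower at an unadjusted p under 0.05 and 0 higher, with a median difference of -0.32. The share of all probe sets at that threshold in this fit is not given here. The calls over all probe sets at an adjusted p under 0.05 fell from 33 to 0. That is another threshold, so whether the loss was particular to the members was not tested. Because the spike-in signal did not overlap between breeds, this fit cannot fully separate it from breed. GBP5 then differed by -1.43 and TRIM21 by -0.42, while PARP9, USP18 and SAMD9 were at -0.20, -0.21 and -0.06. IFI27, RSAD2 and ISG15 were at -0.61, -0.28 and -0.28. Within Brahman the spike-in levels ran opposite to the set, lowest in Brahman 1 and highest in Brahman 3. Within Holstein, animal 2 was the highest for both, while animal 1 was the lowest for the spike-ins and animal 3 for the set. Between breeds, Holstein had the higher mean for both, at 10.14 against 9.72 for the spike-ins and 9.38 against 8.97 for the set. The part of the spike-in signal in these values was not tested.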

How the data were processed

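One array per animal was analysed for 3 Brahman and 3 Holstein animals. The deposited table holds log2 values per probe set, and the authors computed them by RMA, which corrects background, quantile-normalises and summarises probes, per the submitters' processing notes (version not given in the sources used here); they run from 2.89 to 14.45. RMA normalises arrays together, so a global change in RNA would be removed. No detection calls were used, and the number of arrays limits the precision. Of all probe sets, 112 controls were left out. Symbols came from the platform annotation; all 34 measured members had the same symbol in the RefSeq table of assembly ARS-UCD2.0, used for names and neighbours only.

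Breeds were compared with limma 3.58.1 in R 4.3.3 (lmFit, eBayes, breed as the only term, two-sided, Benjamini-Hochberg over all probe sets), after testing on simulated data. Statistics were given for the 12 members with the smallest p and the 5 with the widest Brahman range. They were also given for 3 genes per pathway list and 1 per marker list. For IFIT2 minus IFIT5 breed labels were permuted exactly. Other values are descriptions. The members and lists were chosen with earlier results of these data known. Alternatives were other normalisations, a filter at a mean of 6, another prior, array weights, a replicate block, a spike-in covariate (18 control probe sets), other probe set rules and leaving out each array. The replicates are different animals.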

Additional observations from a re-analysis of the deposited data

How the results depend on the processing

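Across all 15 alternatives limma called 0 of the 34 genes and the set's median difference stayed negative, between -0.13 and -0.62, with 26 to 33 genes lower where single arrays were left out. With the spike-in signal added the 5 lower and 1 higher genes at an unadjusted p under 0.05 became 1 and 0. The calls over all probe sets fell from 33 to 0. That fit has fewer degrees of freedom, and its covariate did not overlap between the breeds. With the replicate number as a block these calls over all probe sets became 10, with 6 lower members, and GZMB had an adjusted p of 0.0536. The labels give the animals a number only and name no pairs. Deviations of same-numbered arrays correlated at 0.111, -0.043 and -0.074, and those of other pairs at -0.086 to 0.118. With 3 arrays per breed, these values cannot decide whether the numbers pair the animals. After repeated quantile normalisation 3 lower genes had no overlap. Leaving out 1 array in turn gave 3 to 20 lower members and 1 higher member at an unadjusted p under 0.05, 5 to 55 calls over all probe sets, and 5 to 24 lower and 1 to 2 higher members without overlap, where 11.7% to 15.3% and 16.1% to 19.9% of all probe sets had none. Some signs turned: with the spike-in covariate CD53 read 0.07, IL10RB 0.03, IFNAC -0.01, IFNG 0.53 and PF4 0.04. Leaving out single arrays, OAS1X ran from -0.89 to 0.48, HDC from -0.11 to 0.05 and IFNG from -0.44 to 0.08. The cause was not tested. Promoter motifs were not run, since no promoter sequences were used here.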
